A study of Arabidopsis thaliana with 4 samples.

Results

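Transcripts of the mitochondrial respiratory chain were compared between wild type (WT) and SCL28-OX root tips of Arabidopsis thaliana. The genes were the lines of the deposited comparison table that carry a nuclear locus of chromosomes 1 to 5 and whose description names NADH dehydrogenase, NADH-ubiquinone, succinate dehydrogenase, cytochrome c oxidase, ubiquinol-cytochrome or ATP synthase, without the word chloroplast. The rule took 94 of the 26822 lines used, and no measured value entered it. Not every description names a part of the chain. By the known function of each locus, 80 of the 94 lines belong to the chain, as 67 subunits and 13 assembly factors, and 14 do not. Of those 14, 7 lie in the copy of mitochondrial DNA on chromosome 2, and the others include plastid ATP synthase genes, plastid NDH genes and a ferric reductase.

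The samples were seedlings of the Col-0 ecotype at 5 d, grown on agar plates in constant light. WT was unmodified, and the other group was a line labelled SCL28-OX #10 that overexpresses SCL28, which encodes a GRAS-family transcription factor. Each genotype had 2 libraries of mRNA, and only 1 overexpression line was sampled, with the transgene's promoter not given in the sources. Whether the libraries stem from separate plant cultures is not stated, and p-values therefore reflect library-to-library spread alone, which may be technical. SCL28 itself, the check of the labels, stood at 6.78 and 7.57 FPKM in WT and at 2378 and 2300.2 FPKM in SCL28-OX, where FPKM is the number of fragments scaled by transcript length and library size. The steps between low FPKM values implied 25900000 to 32800000 fragments per library, on the assumption that the scaling used each library's own mapped fragments. On that reading the tested chain genes held from 166 to 31471 fragments in a library.

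The respiratory chain of the inner mitochondrial membrane passes electrons from NADH through complex I, and from succinate through complex II, to ubiquinone. Complex III hands them to cytochrome c, and complex IV to oxygen, while the proton gradient that complexes I, III and IV build drives ATP synthesis by complex V, the ATP synthase. Some subunits are encoded in the mitochondrial genome and the rest, described here, in the nucleus. Core subunits carry the redox centres, the catalytic sites or the rotating stalk, or, in complex II, anchor the enzyme in the membrane. In complex V the δ subunit gene ATP5 (AT5G13450) was counted as core as well. Accessory subunits surround the core, and assembly factors build the complexes without staying in them. Growing root tips, with their dividing cells, have a high demand for ATP.

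Many plant genes for mitochondrial proteins carry short promoter motifs called site II elements, which TCP transcription factors are known to bind. The site II letters TGGGCC or TGGGCT, on either strand, stood in the 300 bases around the annotated gene start (250 before to 50 after) of 39 of the 73 chain genes that were tested, or 53.4%. Of all 27437 promoters of nuclear protein-coding genes the share was 21.7%, and of tested genes' promoters 25.9%. It was 73.9% in complex I (17 of 23 genes), 58.3% in complex V, 52.4% in complex IV, 42.9% in complex III and 10.0% in complex II (1 of 10). The letters AAACCCTA of the telo box, another motif of growth-related plant genes, stood in 2.74% of the chain genes' windows and in 6.22% of all windows. TGGGCCCA holds the first site II letters on both strands and was counted as 2 overlapping matches.

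The promoter stretches below are shown because their genes recur in the results: 2 copies of the ATP synthase β subunit gene, which both rose, a complex I gene that fell and another that did not pass the test, and SDH4, which rose most in complex II. Each runs 5′ to 3′ from 150 bases before the annotated start to the base before it, from RefSeq's TAIR10.1 assembly, whose starts can differ from the deposited intervals, with site II and telo-box letters in capitals.
β-1, AT5G08670, chr5:2821252-2821401, minus strand: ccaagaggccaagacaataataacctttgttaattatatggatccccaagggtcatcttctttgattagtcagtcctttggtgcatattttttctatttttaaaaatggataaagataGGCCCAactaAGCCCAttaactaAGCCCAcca
β-2, AT5G08690, chr5:2825511-2825660, plus strand: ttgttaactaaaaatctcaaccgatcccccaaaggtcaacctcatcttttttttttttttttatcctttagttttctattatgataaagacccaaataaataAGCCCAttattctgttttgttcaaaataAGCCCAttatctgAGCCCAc
B16.6, AT2G33220, chr2:14078700-14078849, plus strand: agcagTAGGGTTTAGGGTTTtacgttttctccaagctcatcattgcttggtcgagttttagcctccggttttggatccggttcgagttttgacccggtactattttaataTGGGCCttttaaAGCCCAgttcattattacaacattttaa
15 kDa, AT3G62790, chr3:23224327-23224476, minus strand: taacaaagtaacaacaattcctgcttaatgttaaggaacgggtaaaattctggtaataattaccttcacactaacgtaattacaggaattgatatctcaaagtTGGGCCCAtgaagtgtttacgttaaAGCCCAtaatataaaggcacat
SDH4, AT2G46505, chr2:19090777-19090926, minus strand: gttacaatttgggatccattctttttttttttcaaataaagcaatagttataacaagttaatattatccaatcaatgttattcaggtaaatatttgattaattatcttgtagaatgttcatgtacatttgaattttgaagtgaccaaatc
The β-1 and β-2 stretches each hold 3 site II matches close to the start. The third copy, β-3 (AT5G08680), also rose and is not shown, with 0 site II matches in its 300 bases. B16.6 has 2 site II matches and 2 overlapping telo boxes. The 15 kDa gene has 3 matches, 2 of them in TGGGCCCA. No match in such a window says only that these letters are not there.

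Most respiratory chain transcripts were lower in SCL28-OX, by small amounts. Of the 94 lines, 78 had a mean of at least 1 FPKM and were tested, and at a limma adjusted p under 0.05 (Benjamini-Hochberg) 14 were higher and 54 lower, beside 32.7% of all 18087 tested genes higher and 33.8% lower. Their median log2 change of FPKM + 1, SCL28-OX minus WT, was -0.34, against -0.01 over all tested genes. WT and SCL28-OX libraries were fully separated for 17 members on the higher side and 56 on the lower, beside 41.4% and 42.1% of all tested genes. Among the 73 tested genes of the chain itself 13 rose and 52 fell, with a median of -0.36. All members together made up 2.12% and 2.11% of the summed FPKM in WT and 1.96% and 1.95% in SCL28-OX. In bulk RNA, fewer cells of a type and less RNA per cell cannot be told apart.

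Chain transcripts are short, and in these data short transcripts were mostly lower across all genes. Across 17708 tested genes Spearman's rho between log2 change and transcript length was 0.68. Genes do not count as independent replicates. The same measure for the difference of the WT pair was -0.05, and for the SCL28-OX pair 0.01. Chain genes under 1000 bases, 38 in number, had a median log2 change of -0.44, with 36 lower and 0 higher; all tested genes of that length had a median of -0.38, with 71.8% lower and 6.55% higher. From 1000 to under 1500 bases the 18 chain genes had a median of -0.15 (5 higher, 11 lower). All genes of that length had a median of -0.19, with 12.3% higher and 55.7% lower. From 1500 bases upward the 17 chain genes had a median of 0.08 (8 higher, 5 lower). All genes of that length had a median of 0.15, with 49.2% higher and 13.2% lower. After subtraction of the smooth length trend from each library, 18 of the 78 tested members were higher and 30 lower, beside 20.9% and 25.9% of all genes. The share of higher members was then close to that of all genes. Their median was -0.05, against -0.03 over all genes. The cause of the length trend was not tested, and most changes below are therefore given with a length-corrected value.

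**Figure D1:**
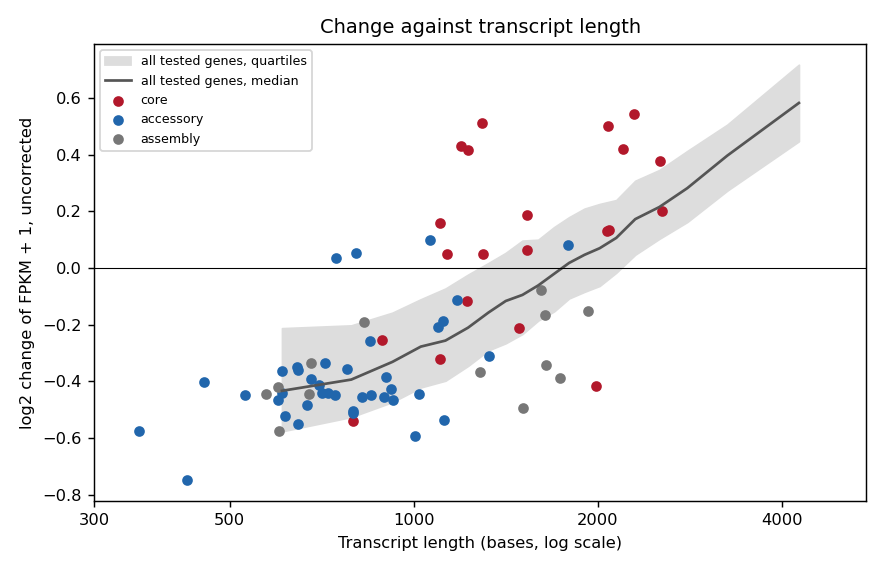
Log2 change of FPKM + 1 (SCL28-OX minus WT, uncorrected) against transcript length in bases on a log scale for the 73 tested chain genes, coloured by role, over the median (line) and quartiles (band) of all tested genes in 20 groups by length. Accessory genes lie mostly at short lengths and low values, near the line, while several core genes lie above it.

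Core and accessory genes differed in their counts. The counts by class, complex and list here and below stand beside 32.7% of all tested genes higher and 33.8% lower. Once length was corrected, these shares were 20.9% and 25.9%. Of 21 tested core subunit genes, 11 rose and 6 fell, with a median log2 change of 0.13; of 39 accessory subunit genes, 2 rose and 35 fell, with a median of -0.44; of 13 assembly factor genes, 0 rose and 11 fell, with a median of -0.37. The genes differ in length too, with medians of 1484, 779 and 1284 bases. Once length was corrected, 12 core genes were higher and 4 lower (median 0.14), against 4 and 19 of the accessory genes (median -0.08) and 1 and 6 of the assembly factors (median -0.15). With GC content corrected as well, where 19.1% of all genes were higher and 23.8% lower, the counts were 10 and 6 for core genes (median 0.041), 3 and 20 for accessory genes (-0.09) and 0 and 5 for assembly factors (-0.13). Median GC content was 43.7% in core genes, 40.9% in accessory genes and 39.7% in assembly factors. Gene copies of the same subunit were counted separately in each class. Core genes higher after the length correction include 3 for the β subunit, 2 for the anchor SDH3 and 2 for the Rieske protein of complex III. Reads may have been split between such copies. Accessory genes hold copies too, such as 3 of subunit 5c and 4 of subunit 6b of cytochrome c oxidase. The difference between these classes was not itself tested.

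**Figure D2:**
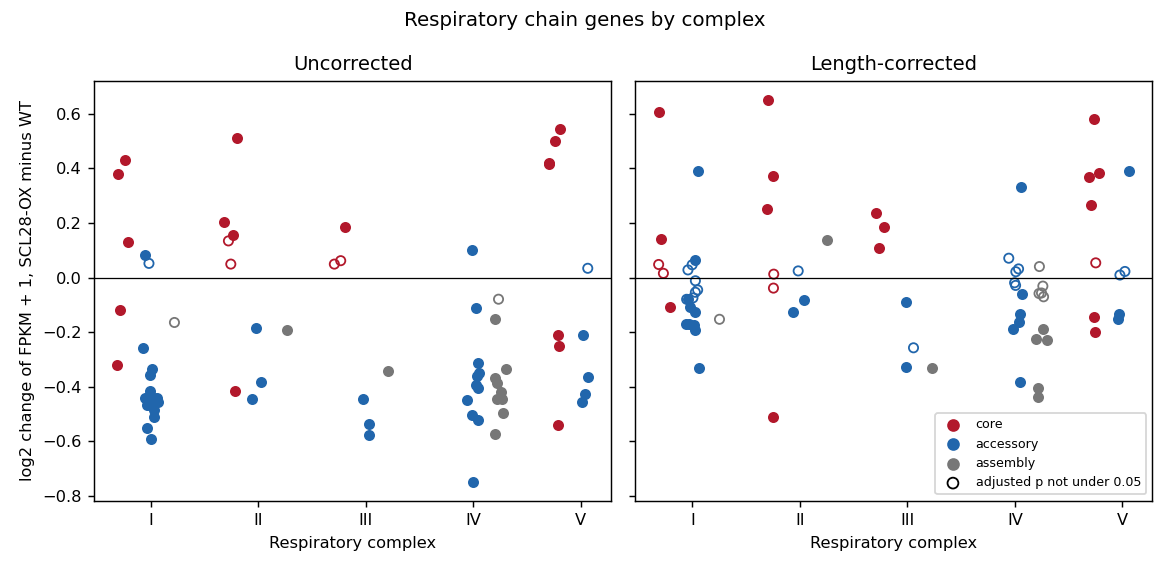
Log2 change of FPKM + 1 (SCL28-OX minus WT) of each tested chain gene by complex, uncorrected on the left and length-corrected on the right, coloured by role, with open circles where the limma adjusted p was not under 0.05. Core genes reach 0.51 to 0.54 in complexes II and V, and accessory genes lie mostly between -0.3 and -0.6 before the correction and near 0 after it.

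Complex I, the NADH dehydrogenase, had 23 tested genes, of which 4 rose and 17 fell (median -0.41); once length was corrected, 4 and 9 (median -0.07). The PSST subunit gene AT5G11770 (TAIR10 chromosome 5, 3790806 to 3793000), whose protein carries the last iron-sulfur cluster before ubiquinone, stood at 156 and 149 FPKM in WT and at 207 and 203 FPKM in SCL28-OX. Both SCL28-OX libraries were above both WT libraries, the log2 change was 0.43 ± 0.028 (SE; limma adjusted p = 9.66e-06), and it was 0.61 after the length correction. The 75 kDa subunit gene AT5G37510, also of the electron path, was at 139.9 and 138 FPKM in WT and 181 and 181 FPKM in SCL28-OX, a log2 change of 0.38 ± 0.022 that became 0.14 with the length correction and -0.027 with length and GC corrected. CI51 (AT5G08530), the 51 kDa subunit that binds NADH, went from 188 and 186 to 205 and 205 FPKM, a rise of 0.13 ± 0.022 whose corrected value of 0.016 was not called and which turned to -0.12, called lower, with length and GC corrected. The 24 kDa subunit gene AT4G02580 fell from 258 and 253 to 237 and 234 FPKM (-0.12 ± 0.022; length-corrected 0.048, not called). The TYKY subunit gene AT1G79010, for another iron-sulfur protein, was at 271 and 268 FPKM in WT and 216 and 215 in SCL28-OX (-0.32 ± 0.020; length-corrected -0.11).

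Of the 17 accessory genes of complex I, 15 fell and 1 rose without the correction; with it 8 were lower, 2 higher and 7 not called (median -0.08). Both copies of the 15 kDa subunit gene were among the largest falls. AT2G47690 was at 205 and 197 FPKM in WT and 132 and 134 FPKM in SCL28-OX, and AT3G62790 was at 226 and 226 FPKM in WT and 149.9 and 158 FPKM in SCL28-OX. Their log2 changes were -0.59 ± 0.026 and -0.55 ± 0.029 (limma adjusted p = 1.77e-06 and 3.53e-06), and -0.33 and -0.17 after the length correction; AT2G47690 shares its interval with another line. The B12 subunit gene AT2G02510 fell from 368 and 368 to 262 and 254 FPKM (-0.51 ± 0.023; length-corrected -0.17). The most abundant gene of the complex, AT3G18410, fell from 741 and 709 to 541 and 527 FPKM (-0.44 ± 0.026), but its length-corrected value of -0.054 was not called, and with length and GC corrected it was lower again (-0.26). AT5G52840, for the B13 subunit, was called in opposite directions: at 373 and 369 FPKM in WT and 313 and 307 FPKM in SCL28-OX, it changed by -0.26 ± 0.020 without the correction and by 0.064 with it, and was lower again with length and GC corrected (-0.16). It shares its interval with another line. The B16.6 gene AT2G33220 did not pass the test at 153 and 157 FPKM in WT and 164 and 157 FPKM in SCL28-OX (0.05 ± 0.029; limma adjusted p = 0.146), and was called higher after the length correction, at 0.39.

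Complex II, succinate dehydrogenase, which also serves the tricarboxylic acid cycle, had 10 tested genes, of which 3 rose and 5 fell (median -0.07). Once length was corrected, 4 were higher and 3 lower. The share of higher genes without the correction was close to the 32.7% of all tested genes. SDH4 (AT2G46505, TAIR10 chromosome 2, 19089729 to 19090549), a membrane anchor, rose most, from 115 and 119.6 FPKM in WT to 168 and 167 FPKM in SCL28-OX. The groups do not overlap, and the change of 0.51 ± 0.027 (limma adjusted p = 3.58e-06) was 0.65 after the length correction and 0.75 with length and GC corrected. The correction of SDH4 used a reference transcript of 1291 bases, which is longer than the deposited interval. The iron-sulfur subunit gene SDH2-2 (AT5G40650) went the other way, from 105 and 107 to 79.1 and 79.4 FPKM (-0.42 ± 0.026; length-corrected -0.51), though it shares its interval with another line. The ratio of SDH4 to SDH2-2 FPKM was therefore 1.09 and 1.12 in WT and 2.12 and 2.10 in SCL28-OX.

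The flavoprotein gene SDH1-1 (AT5G66760), the catalytic subunit, rose from 230.5 and 233 to 265 and 269 FPKM (0.20 ± 0.021), and the length correction brought it to -0.039, not called, and length and GC together to -0.14, called lower. The second anchor gene SDH3-2 (AT4G32210) was low, at 19.8 and 19.7 FPKM in WT and 22.0 and 22.3 FPKM in SCL28-OX, and rose by 0.16 ± 0.040 (length-corrected 0.37). Its copy SDH3-1 (AT5G09600) was at 15.6 and 16.5 FPKM in WT and 16.2 and 17.1 FPKM in SCL28-OX, which overlap, and was called only after the correction, at 0.25. Both SDH3 genes carry stretches found elsewhere in the genome, with 92.5% and 94.5% of their 50-base words unique, so reads may have been split between them. The plant-type accessory genes fell: AT3G47833 from 155 and 154 to 114 and 112 FPKM (-0.45 ± 0.023; length-corrected -0.13, not called with length and GC or with coding length corrected) and AT1G08480 from 269 and 271 to 206 and 207 FPKM (-0.38 ± 0.020; length-corrected -0.081). SDH5 (AT1G47420), the most abundant at 335 and 334 FPKM in WT and 293 and 295 FPKM in SCL28-OX, fell by 0.19 without the correction and stood at 0.024, not called, with it; it shares its interval with another line. The gene for the assembly factor that inserts flavin, AT5G51040, was at 216 and 219.9 FPKM in WT and 189 and 192 FPKM in SCL28-OX; it was called lower without the correction (-0.19 ± 0.023) and higher with it (0.14), and was not called with length and GC or with coding length corrected.

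Complex III, the cytochrome bc1 complex, had 7 tested genes, of which 1 rose and 4 fell (median -0.34; length-corrected 3 and 3). The cytochrome c1 gene AT3G27240, whose haem protein passes electrons to cytochrome c, was at 211 and 204 FPKM in WT and 231 and 242 FPKM in SCL28-OX. Its rise of 0.19 ± 0.030 (limma adjusted p = 0.000926) was 0.24 after the length correction. The other cytochrome c1 gene, AT5G40810, is not among the 94 lines and fell from 149.6 and 147 to 132 and 126 FPKM (-0.19 ± 0.029; length-corrected -0.20), though with coding length corrected that fall was not called (-0.053). The Rieske iron-sulfur gene AT5G13430 was at 158 and 155 FPKM in WT and 166 and 158 FPKM in SCL28-OX, and its copy AT5G13440 at 181 and 192 FPKM in WT and 199 and 191 FPKM in SCL28-OX. Both were not called without the correction and higher with it (0.18 and 0.11); only 83.6% and 86.3% of their 50-base words are unique, so reads may have been split between them.

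Small subunits of complex III are among the most abundant chain transcripts. AT1G15120, for the hinge protein that binds cytochrome c1, fell from 983 and 969 to 706 and 726 FPKM (-0.45 ± 0.020; length-corrected -0.090), a call lost with length and GC corrected (-0.037). AT3G52730, another small subunit gene, fell from 939.8 and 934 to 654 and 638 FPKM, by 0.54 on the log2 scale (limma adjusted p = 9.07e-07; length-corrected -0.33). The minor hinge gene AT2G01090, which shares its interval with another line, fell from 51.9 and 57.0 to 33.1 and 39.5 FPKM (-0.58 ± 0.079), and its corrected value of -0.26 was not called. The assembly chaperone gene AT5G51220 fell from 53.1 and 50.4 to 39.7 and 41.3 FPKM (-0.34 ± 0.038; length-corrected -0.33).

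In complex IV, cytochrome c oxidase, nearly every tested gene was lower. Its core subunits are encoded in the mitochondrial genome, so the 11 tested subunit genes were all accessory, with 10 assembly factor genes beside them. In all 19 of the 21 fell and 1 rose (median -0.39), with 10 lower and 1 higher once length was corrected (median -0.06). AT5G61310, for a copy of subunit 5c (COX5c), showed the largest uncorrected fall of all members, from 89.6 and 85.3 to 53.6 and 49.7 FPKM (-0.75 ± 0.043; limma adjusted p = 4.68e-06; length-corrected -0.38). Length-corrected, SDH2-2, AT1G48510 and COX19-2 (-0.40) were lower still. With coding length corrected instead, COX19-2 stood at 0.0071, not called, SDH2-2 at -0.23 and AT1G48510 at -0.50. The 3 detected COX5c copies summed to 796 and 770.5 FPKM in WT and to 571 and 599.8 FPKM in SCL28-OX. A copy of subunit 6b, AT5G57815, fell from 81.5 and 78.1 to 53.3 and 57.4 FPKM (-0.52 ± 0.042; length-corrected -0.14), and AT5G58005 from 65.2 and 62.1 to 44.5 and 44.6 FPKM (-0.50 ± 0.034; length-corrected -0.16). Neither was called with length and GC corrected (-0.090 and -0.089), and AT5G57815 was not called with coding length corrected. The most abundant gene of the complex, AT4G37830 for subunit 6a, fell from 903 and 913 to 665 and 665 FPKM (-0.45 ± 0.017), of which -0.061 was left after the length correction.

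The exception was a gene of subunit 5b, which binds zinc. AT3G15640 rose from 184 and 185 to 200.3 and 195 FPKM (0.10 ± 0.024; length-corrected 0.33), and this uncorrected call was lost with eBayes without trend (limma adjusted p = 0.0714). Its copy AT1G80230 fell from 142 and 135 to 127 and 128 FPKM (-0.11 ± 0.029; length-corrected 0.071, not called), as did AT1G52710, from 29.4 and 25.9 to 21.0 and 20.5 FPKM (-0.39 ± 0.060; length-corrected -0.019, not called). The 3 copies summed to 355 and 345 FPKM in WT and to 348 and 343 FPKM in SCL28-OX, a ratio of the means of 0.988. Of the 17 subunit lines, 6 were untested, with no library above 0.2996 FPKM, and 5 of these were listed at 0 throughout.

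Assembly factors of complex IV, which insert haem and copper, were low, and 9 of 10 fell without the correction. With it 5 were lower and 5 not called, and the lower ones numbered 4 with GC content corrected as well and 3 with coding length corrected. AT1G48510, for a copy of SURF1, a factor of haem insertion, fell from 14.3 and 15.7 to 10.3 and 10.4 FPKM (-0.50 ± 0.059; length-corrected -0.44). The other copy, SURF1 (AT3G17910), was at 20.5 and 20.6 FPKM in WT and 20.4 and 18.5 FPKM in SCL28-OX. Its change of -0.08 ± 0.054 (length-corrected -0.058) was not called with or without the correction. AT5G16060 and AT4G21192, both related to the factor CMC1, fell from 61.5 and 64.2 to 38.7 and 45.2 FPKM and from 31.9 and 31.2 to 22.9 and 23.0 FPKM; the first (-0.57 ± 0.066; length-corrected -0.19) shares its interval with another line and was not called with length and GC (-0.15) or with coding length corrected, and the second (-0.45 ± 0.037) was not called after the correction (-0.071). The copper chaperone gene of the COX11 type, AT1G02410, fell from 33.1 and 34.6 to 26.2 and 25.8 FPKM (-0.37 ± 0.039; length-corrected -0.23). Reads of COX19-1 and COX19-2 cannot be well separated, with 30.0% and 63.7% of their 50-base words unique.

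Complex V, the ATP synthase, held the largest uncorrected rise among the chain genes; length-corrected, SDH4 and PSST were higher. Of 12 tested genes 4 rose and 7 fell (median -0.21), with 5 higher and 4 lower once length was corrected. Without the correction the share of higher genes was close to the 32.7% of all tested genes. All 3 genes of the catalytic β subunit rose. β-1 (AT5G08670, TAIR10 chromosome 5, 2818117 to 2821176) was at 223 and 218 FPKM in WT and 315 and 310.2 FPKM in SCL28-OX. β-2 (AT5G08690, TAIR10 chromosome 5, 2825713 to 2828662) was at 235 and 231 FPKM in WT and 309 and 314 FPKM in SCL28-OX. β-3 (AT5G08680, TAIR10 chromosome 5, 2821928 to 2824966) was at 142 and 143 FPKM in WT and 208 and 207 FPKM in SCL28-OX. In each copy both SCL28-OX libraries were above both WT libraries. The log2 changes were 0.50 ± 0.022, 0.42 ± 0.021 and 0.54 ± 0.022 (SE; limma adjusted p = 1.66e-06, 2.94e-06 and 1.18e-06), and 0.38, 0.27 and 0.37 after the length correction. With GC corrected as well, β-1 and β-3 stayed higher at 0.15 and 0.16, and β-2, at 0.041, was not called. The copies are near identical in part, with 92.1% of the 50-base words of β-3 and 91.7% of those of β-2 unique, so reads may have been split between them. Their sum, which depends less on such splitting, was 599.6 and 592 FPKM in WT and 832 in each SCL28-OX library. The ratio of 1.40 is not corrected for length or GC content.

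The central stalk moved apart. AT5G47030, for the δ′ subunit, which corresponds to the bacterial ε subunit, rose from 302 and 307 to 416 and 399 FPKM (0.42 ± 0.025; limma adjusted p = 6.31e-06; length-corrected 0.58). ATP3 (AT2G33040), the γ subunit that turns inside the catalytic ring, fell from 724 and 715 to 622 and 620.4 FPKM (-0.21 ± 0.018; length-corrected -0.15). AT1G51650, for the small ε subunit, fell from 1123 and 1107 to 757 and 778 FPKM (-0.54 ± 0.020; length-corrected -0.20). The ratio of summed β to γ FPKM was 0.828 and 0.827 in WT and 1.34 in each SCL28-OX library, and that of δ′ to ε was 0.269 and 0.278 in WT and 0.549 and 0.512 in SCL28-OX. These ratios are of transcripts, uncorrected for length and GC content, and say nothing of the proteins' proportions.

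Of the 5 accessory genes of complex V, 4 fell and 0 rose without the correction; with it 2 were lower and 1 higher (median 0.0092). ATPQ (AT3G52300), for subunit d of the stator, was among the most abundant members, at 1096 and 1113 FPKM in WT and 811 and 798 FPKM in SCL28-OX (-0.46 ± 0.018; length-corrected -0.15). MGP1 (AT2G21870), for the plant subunit FAd, fell from 832 and 827 to 716 and 719 FPKM (-0.21 ± 0.017) and stood at 0.0092 after the correction, not called. Of the subunit g copies, AT4G29480 fell from 503 and 508 to 381 and 371 FPKM (-0.43 ± 0.021; length-corrected -0.13) and AT2G19680 from 142 and 138 to 109 and 108 FPKM (-0.36 ± 0.027; length-corrected 0.022, not called). The third, AT4G26210, was at 58.8 and 55.1 FPKM in WT and 57.6 and 59.0 FPKM in SCL28-OX, which overlap, and was called higher only after the correction (0.39).

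A stricter set was formed of the members called in 1 direction in all 4 fits: uncorrected, corrected for transcript length, for length and GC content, and for coding length. The last alone called 18 of the 78 tested members higher and 26 lower, beside 20.8% and 25.3% of all genes. The stricter set holds 9 of the 78 tested members higher and 23 lower, beside 12.3% and 14.6% of all genes. Its share of higher members was thus close to that of all genes. The chain genes among the higher ones number 8: PSST, SDH4, SDH3-2, cytochrome c1 (AT3G27240), COX5b (AT3G15640), β-1, β-3 and δ′. The 22 lower chain genes are 8 of complex I, 2 of complex II, 2 of complex III, 6 of complex IV and 4 of complex V. With each library left out in turn, in the uncorrected and the length-corrected fit, all 9 higher members and 20 of the 23 lower members were still called; AT1G08480, AT4G37830 and COX15 (AT5G56090) were not.

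**Figure D3:**
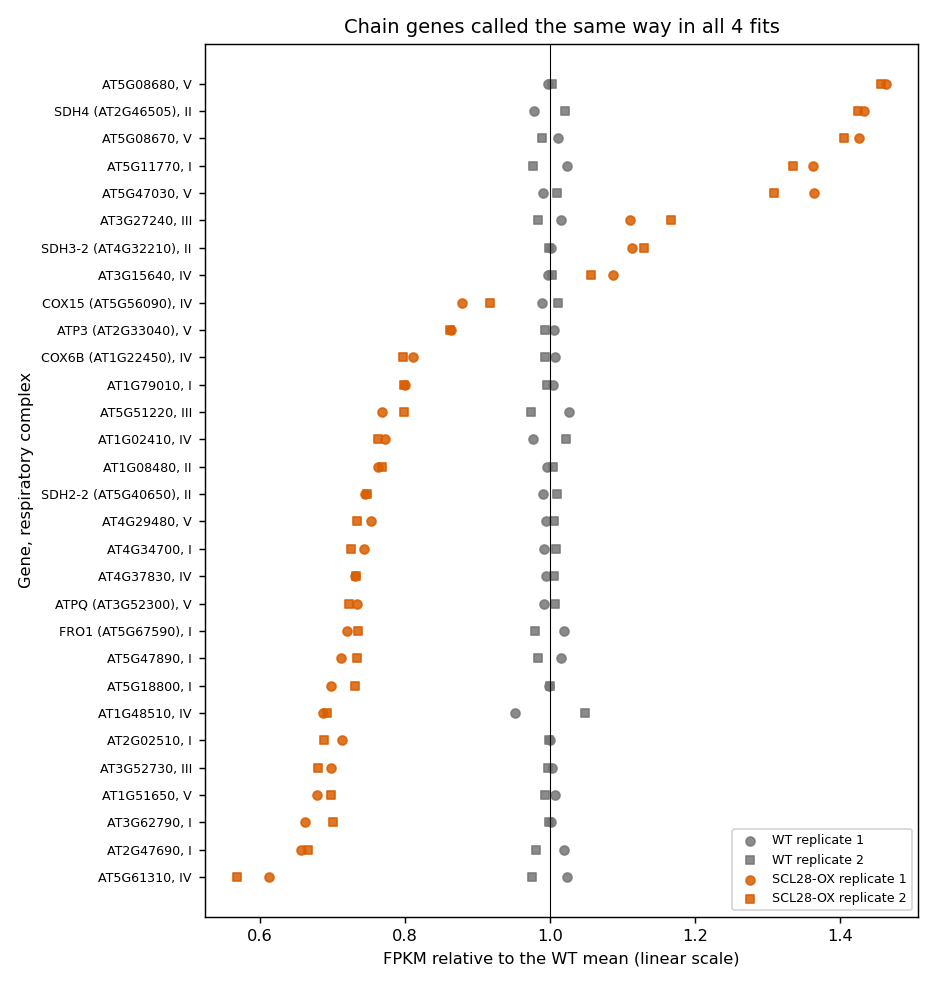
FPKM of each library divided by the WT mean (linear scale) for the 30 chain genes called the same way in all 4 fits, WT in grey and SCL28-OX in orange, with circles for replicate 1 and squares for replicate 2. The SCL28-OX libraries lie on 1 side of both WT libraries at every gene. They run from about 0.6 of the WT mean for AT5G61310 to above 1.4 for AT5G08670, AT5G08680 and SDH4.

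Genes with site II letters and genes without them were both mostly lower. With them 6 of 39 tested chain genes rose and 29 fell (median -0.40), and without them 7 of 34 rose and 23 fell (median -0.32). After the length correction the medians were both -0.05, with 9 and 15 calls against 8 and 14. No test of this difference was made.

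Genes outside the chain that the rule also took gave 5 tested lines of 14. ATPC1 (AT4G04640), the γ subunit of the plastid ATP synthase, rose from 19.5 and 17.8 to 28.6 and 27.3 FPKM (0.56 ± 0.054; length-corrected 0.61). Its copy ATPC2 (AT1G15700), which shares its interval with another line, fell from 9.85 and 10.7 to 8.59 and 7.75 FPKM (-0.30 ± 0.070; length-corrected -0.14, not called). Photosynthesis markers of shoot tissue moved with ATPC1: of 6 tested markers 4 rose and 0 fell (length-corrected 5 and 0). The summed level of all 9 was 93.8 and 94.6 FPKM in WT and 140.8 and 142 FPKM in SCL28-OX. Among these 9, 1 marker stood at 0 in every library, and CAB2 and CAB3 were under 0.3 FPKM. Their part in any result was not tested. Of the mitochondrial-DNA copies on chromosome 2 only AT2G07671 was tested, at 3.49 and 1.77 FPKM in WT and 1.504 and 3.12 FPKM in SCL28-OX, which overlap; 92.9% to 100% of the 50-base words of these 7 lines also occur in the mitochondrial genome, so their reads cannot be told apart.

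Some tissue markers changed as well, in numbers too small to set against the 32.7% of all tested genes higher and 33.8% lower. Of 4 markers of the root meristem 0 rose and 2 fell, of 2 root cap markers 0 and 1, and of 4 markers of root hairs and mature epidermis 3 and 1, with PRP3 up by 1.51 ± 0.036 (length-corrected 1.67). Once length was corrected, the counts were 0 and 2 for the meristem, 0 and 2 for the root cap, and 3 and 0 for root hairs and epidermis. The shares of all genes were then 20.9% higher and 25.9% lower. Summed FPKM of the meristem markers was 84.9 and 82.2 in WT and 70.1 and 67.4 in SCL28-OX. Most of that sum was SYP111, at 69.4 and 66.6 FPKM in WT and 57.0 and 54.3 FPKM in SCL28-OX. PLT1 also fell (-0.27, length-corrected -0.46), while PLT2 and WOX5 were not called. The part of cell composition in the chain genes' changes was not tested.

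Mobile and alternative carriers of the same pathway were followed in lists chosen with earlier results of these data known. Both cytochrome c genes, for the protein between complexes III and IV, fell. CYTC-1 (AT1G22840) went from 728 and 733 to 521 and 519 FPKM (-0.49 ± 0.017; length-corrected -0.13) and CYTC-2 (AT4G10040) from 156 and 159 to 105 and 108 FPKM (-0.56 ± 0.026; length-corrected -0.23). AOX1A, the alternative oxidase that bypasses complexes III and IV, was at 52.1 and 48.4 FPKM in WT and 47.5 and 47.4 FPKM in SCL28-OX and did not pass the test (-0.08 ± 0.040; limma adjusted p = 0.118). Its length-corrected value of -0.11 was not called either. Among 7 tested genes of alternative respiration 0 rose and 3 fell, with UCP2 (AT5G58970) at -0.30 ± 0.044 (length-corrected -0.19, not called with GC corrected as well) and PUMP1 (AT3G54110) at -0.26 ± 0.024 (length-corrected -0.14), both uncoupling protein genes; once length was corrected, 0 and 5. In a list of genes known to respond to mitochondrial dysfunction, which shares AOX1A and NDB2 with it, 1 of 8 rose and 4 fell (length-corrected 0 and 5). In the list of cytochrome c and complex III genes, which holds AT3G27240 and the processing peptidases of the complex's core, 4 of 7 rose and 3 fell (length-corrected 1 and 3). Of 3 adenine nucleotide carrier genes 0 rose and 1 fell, with and without the length correction. That call, of AAC1 (AT3G08580), was lost with coding length corrected (-0.041). Beside these lists, 32.7% of all tested genes were higher and 33.8% lower, and 20.9% and 25.9% once length was corrected.

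Genes of protein import into mitochondria were mostly lower. Of 23 tested genes of import, porins and prohibitins 0 rose and 19 fell (median -0.27), with 1 higher and 16 lower once length was corrected (median -0.16). TIM9 (AT3G46560), a small chaperone of the intermembrane space, fell from 254 and 262 to 166 and 165 FPKM (-0.64 ± 0.024; length-corrected -0.28), and its partner TIM10 (AT2G29530) from 378 and 387 to 246 and 258 FPKM (-0.60 ± 0.028; length-corrected -0.21). Pyruvate dehydrogenase and the tricarboxylic acid cycle, which feed the chain with NADH and succinate, were mixed: of 25 tested genes 14 rose and 7 fell (median 0.11), and after the length correction 9 and 7 (median 0.0045). With length and GC corrected, more of them were lower than higher, 12 against 7 (median -0.065). The aconitase gene ACO3 (AT2G05710) rose from 169 and 169 to 262 and 257 FPKM (0.62 ± 0.022; length-corrected 0.17), and IDH-V (AT5G03290), an isocitrate dehydrogenase gene, fell from 204 and 205 to 177 and 177 FPKM (-0.20 ± 0.021; length-corrected -0.13). No comparison between these lists was tested.

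**Figure D4:**
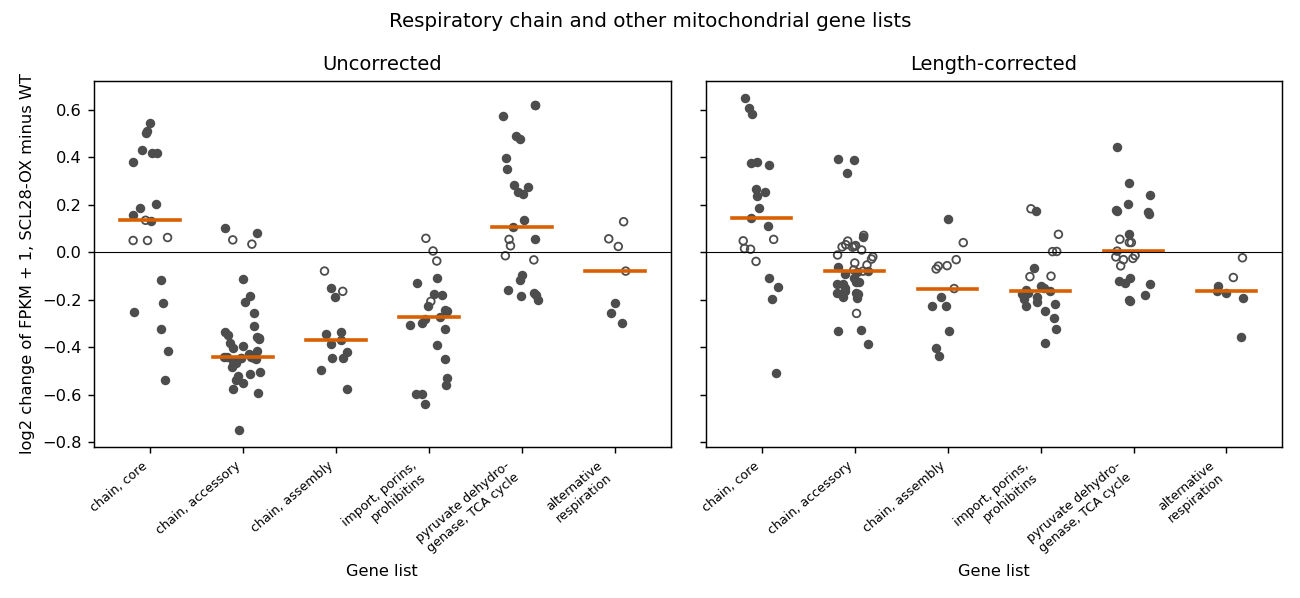
Log2 change of FPKM + 1 (SCL28-OX minus WT) of the tested genes of 6 groups of mitochondrial genes, uncorrected on the left and length-corrected on the right, with orange bars at the medians and open circles where the limma adjusted p was not under 0.05. The medians of the core chain genes are 0.13 and 0.14, those of the accessory genes -0.44 and -0.08, and those of the import group -0.27 and -0.16.

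In the authors' deposited table, 79 members had a test, with 14 higher and 53 lower at a q-value under 0.05, beside 29.9% and 28.3% of all genes with a test, and 66 members were called in the same direction by limma.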

How the data were processed

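Root tip RNA of 2 WT and 2 SCL28-OX samples was sequenced from stranded mRNA libraries, per the labels' protocols, where the extraction text speaks of roots. CASAVA 1.8.2, TopHat2 2.0.13, Cuffdiff 2.2.0 and the TAIR10 build are named in the submitters' processing notes; the sources give neither the annotation nor any use of strand. The authors deposited FPKM for every gene in each library, and a comparison table of group means with the q-value and p-value of their test, per the file headers. FPKM does not remove a difference between groups that depends on transcript length. Of 26883 lines, 60 with shifted columns were left out and 1 is not analysed here.

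Genes whose mean reached 1 FPKM were tested on log2(FPKM + 1), two-sided, with limma 3.58.1 in R 4.3.3 (eBayes with trend), adjusted by Benjamini-Hochberg over 18087 genes at a threshold of 0.05. The pseudocount of 1 understates changes of low genes. The length correction fitted each library's deviation from the gene mean against log2 transcript length (mgcv 1.9.3, 10 basis functions) and subtracted it, and other fits added GC content or used coding length. Lengths and GC content were those of the RefSeq transcript of the locus whose ends lay nearest the deposited interval. Only 23.7% of lines with a length had the same start and end as that transcript. The lengths may therefore differ from those behind the FPKM, and the members' fragment counts used them too. Fits were tested on simulated data. The members, lists and alternatives were chosen with earlier results of these data known. Per complex, the text describes the highest member, up to 3 rises and 3 falls with a group mean of at least 5 FPKM, members called both ways, and, of other lists, up to 2 rises and falls; further members were chosen after their values were seen. Complex and role were assigned by locus.

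Depth was read from whole steps of low FPKM (93.4% to 94.9% whole within 0.1 fragments) and not checked against mapped reads. Chi-square per degree of freedom between the libraries of a genotype was 1.17 in WT (chi-square test, p = 0.00398 over 508 genes) and 1.23 in SCL28-OX (p = 0.000261 over 502 genes). Over genes of at least 5000 fragments chi-square per degree of freedom was 3.14 in WT (40 genes) and 1.40 in SCL28-OX (36 genes), so the libraries of a genotype differed by a small excess over counting noise. Each was counted as 1 sample, as labelled, and whether they came from 1 RNA pool is not known. Lines that share their interval with another, 3043 in all, may share reads. Promoters came from TAIR10.1 with RefSeq starts. Alternatives were other pseudocounts, filters, scalings and eBayes settings, the replicate block, each library left out, and members without shared lines.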

Additional observations from a re-analysis of the deposited data

How the results depend on the processing

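The 14 higher and 54 lower members, with a median log2 change of -0.341, depended mainly on the treatment of transcript length. Lower members numbered 30 with the length correction (median -0.0496), 33 with length and GC content (-0.0793), 26 with coding length (-0.0384), and 29 over the chain members alone with the length correction (-0.0539). With each library left out in turn, 53 to 55 were lower and 14 higher without the correction (median -0.352 to -0.334), and 28 to 29 lower with it (medians -0.0333, -0.0601, -0.0523 and -0.0430 without WT 1, WT 2, SCL28-OX 1 and SCL28-OX 2), a repeat chosen after seeing the data. Quantile normalization gave 22 higher members and 47 lower (median -0.147), and no filter on low values gave a median of -0.285. GC content still went with the length-corrected change, with a Spearman's rho of 0.35 over all genes and 0.54 over the 73 chain genes.

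The replicate block left 14 higher and 54 lower; with the length correction it gave 31 lower and a median of -0.0496. Replicate numbers were not shown to pair the libraries: the correlation of same-numbered deviations was 0.12 over 2 pairs.

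Among 35 members described by the rule, leaving out a library without the correction ended 0 calls. Changes that turned sign were those of SDH5 (AT1G47420; 0.0275 under quantile normalization, 0.0243 with the length correction, with and without the block), AT4G21192 (0.0487 with length and GC), CI51 (AT5G08530; -0.120 with length and GC), AT5G37510 (-0.0267 with length and GC), AT5G51040 (0.138 with length, with and without the block, 0.0484 with length and GC, 0.0539 with coding length), AT5G52840 (0.0643 with length, with and without the block, 0.0105 with coding length) and SDH1-1 (AT5G66760; -0.0387 with length, with and without the block, -0.144 with length and GC, -0.0293 with coding length). Calls lost with direction kept were those of AT1G15120, AT5G58005 and β-2 (AT5G08690) with length and GC, AT3G47833, AT5G57815, AT5G16060 and SDH5 with length and GC and with coding length, AT2G01090 with each correction, AT3G18410, AT4G21192 and CI51 with length and with coding length, AT5G51040 under quantile normalization, and AT3G15640 with eBayes without trend (limma adjusted p = 0.0714). The cause was not tested. With 2 libraries of 1 line per genotype, plant-to-plant variation and differences between lines were not measured.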
